A study of Mus musculus with 2 samples.

Results

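The integrated stress response was described here by 10 genes, which were Atf4, Atf5, Atf3, Ddit3, Trib3, Chac1, Ddit4, Sesn2, Gdf15 and Fgf21, in the hearts of mice that lacked the Mediator subunit Med1 in cardiomyocytes. The members were chosen by gene symbol, and rows that shared a symbol were summed. All 10 genes had a row in both libraries, which list 22882 gene symbols. Of the 10 genes, 9 passed the filter on low values, as did 10489 symbols in all. A gene passed when its value was above 0 in both libraries and at least 1 FPKM in one of them, where FPKM is the number of fragments per kilobase of transcript, scaled to the mapped reads of the library.

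The study compared 23-day-old csMed1-/- mice with Med1fl/fl mice, both of mixed gender on the C57BL6/J background. Both genotypes carry Med1 alleles flanked by loxP sites, and the csMed1-/- mice carry in addition a Cre transgene driven by the α-MyHC promoter, which removes the floxed part of Med1 in cardiomyocytes from late gestation on. The labels give no Cre for the Med1fl/fl control, so an effect of Cre itself and the loss of Med1 cannot be told apart. Heart RNA of 5 mice was pooled for each genotype and 1 poly(A)-selected library was sequenced from each pool. There are therefore 2 libraries and no replicates, no difference below has an error or a test, and each ratio describes this pair of pools. The libraries hold RNA of the whole heart, in which fibroblasts, endothelial cells and leukocytes keep Med1.

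The integrated stress response is set off when a kinase phosphorylates the initiation factor eIF2α, which slows protein synthesis in general while the mRNAs of ATF4 and ATF5 are translated more. ATF4 then switches on genes for amino acid supply and redox balance, further transcription factors such as ATF3 and CHOP (encoded by Ddit3), and feedback inhibitors of the response. In muscle and heart the response is known to follow damage to mitochondria, and GDF15 and FGF21, hormones secreted by stressed cells, are then called mitokines. Since ATF4 and ATF5 are controlled largely by translation, their mRNA level does not give the level of the protein.

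The upstream sequences of 4 of the genes are shown because they carry the ATF motifs found among the members, or, for Gdf15, belong to the gene with the largest ratio and carry none. Each is the 250 bases before the RefSeq transcription start in GRCm38.p6 (mm10), written 5′ to 3′ on the gene's own strand. Capitals mark the C/EBP-ATF response element core TGATGNAA and the ATF/CRE composite TGACGNAA on either strand. The Atf3 sequence is chr1:191183334-191183583 (minus strand), that of Chac1 is chr2:119350992-119351241 (plus strand), that of Fgf21 is chr7:45615491-45615740 (minus strand) and that of Gdf15 is chr8:70632457-70632706 (minus strand).
Atf3: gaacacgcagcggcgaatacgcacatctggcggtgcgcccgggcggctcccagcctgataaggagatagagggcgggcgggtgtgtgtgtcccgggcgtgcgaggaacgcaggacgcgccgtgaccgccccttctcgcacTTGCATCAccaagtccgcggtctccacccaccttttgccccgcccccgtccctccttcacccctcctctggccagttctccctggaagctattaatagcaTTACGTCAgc
Chac1: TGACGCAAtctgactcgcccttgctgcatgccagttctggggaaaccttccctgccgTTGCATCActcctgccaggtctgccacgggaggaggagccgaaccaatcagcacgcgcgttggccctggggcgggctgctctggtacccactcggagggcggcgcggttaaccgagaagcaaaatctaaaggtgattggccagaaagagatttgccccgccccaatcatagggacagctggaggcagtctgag
Fgf21: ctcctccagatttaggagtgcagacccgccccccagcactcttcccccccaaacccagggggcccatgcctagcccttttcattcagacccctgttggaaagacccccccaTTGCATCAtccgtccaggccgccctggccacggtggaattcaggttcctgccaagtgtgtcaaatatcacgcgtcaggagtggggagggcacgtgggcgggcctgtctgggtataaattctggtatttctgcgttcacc
Gdf15: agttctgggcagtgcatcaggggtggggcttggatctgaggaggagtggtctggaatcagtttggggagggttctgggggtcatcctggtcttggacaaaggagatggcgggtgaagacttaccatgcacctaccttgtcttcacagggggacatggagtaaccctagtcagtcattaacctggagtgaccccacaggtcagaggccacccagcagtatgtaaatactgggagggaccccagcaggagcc

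Atf3 carried the response element core as TTGCATCA at 110 to 103 bases before its start, and the ATF/CRE composite as TTACGTCA at 10 to 3 bases before it. Chac1 carried TTGCATCA at 193 to 186 bases and TGACGCAA at 250 to 243 bases before its start. Fgf21 carried TTGCATCA at 139 to 132 bases before its start. The other 7 genes had neither set of letters in any of their windows, the members having 12 windows in all. Among all 32851 windows of the same length, 3.45% held the response element core, 1.39% held the composite and 4.78% held either. The motifs were picked with the sequences in view, a match in letters does not show binding, and the 3 genes with a match went in different directions in the heart: Atf3 was higher in the csMed1-/- library, Chac1 was lower, and Fgf21 was close to undetected in both libraries.

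Med1 itself (chr11:98152154-98193293, minus strand) was at 3.38 FPKM in the Med1fl/fl library and at 0.412 FPKM in the csMed1-/- library, a ratio of 0.122. The library labels and the targeted gene thus go the same way.

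**Figure D1:**
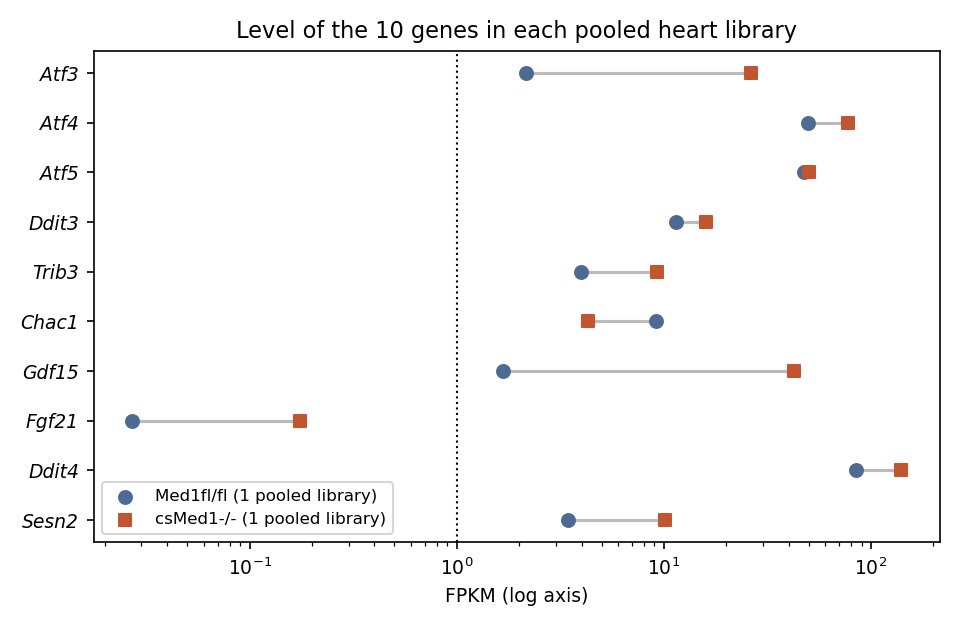
FPKM (log axis) of the 10 genes in the Med1fl/fl library (circles) and the csMed1-/- library (squares), with 1 pooled library per genotype and so no error bars. The dotted line marks 1 FPKM. Gdf15 and Atf3 have the longest connecting lines, Chac1 is the only gene of the 10 whose square lies to the left of its circle, and Fgf21 lies under 1 FPKM in both libraries.

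Of the 9 genes that passed the filter, 4 were more than 2-fold higher in the csMed1-/- library (Gdf15, Atf3, Sesn2 and Trib3, 44.4% of the 9), against 13.6% of all genes that passed. One gene, Chac1, was more than 2-fold lower (1 of 9, or 11.1%), against 18.0% of all genes. The members were chosen with earlier results of these data known, so their shares are a description beside those of all genes. Atf4, Atf5, Ddit3 and Ddit4 stayed within 2-fold. At a 4-fold threshold 2 of the 9 were higher, Gdf15 and Atf3, and 0 were lower, where 4.32% of all genes were higher and 5.14% lower. At a 1.5-fold threshold 6 were higher, with Atf4 and Ddit4 added, and 1 was lower, where 23.7% of all genes were higher and 29.7% lower. The median log2 ratio of csMed1-/- over Med1fl/fl was 0.72 over the 9 genes and -0.07 over all genes, whose quartiles were -0.72 and 0.55. All 9 were at 1 FPKM or more in both libraries, so none of them passed the filter through its higher library alone.

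**Figure D2:**
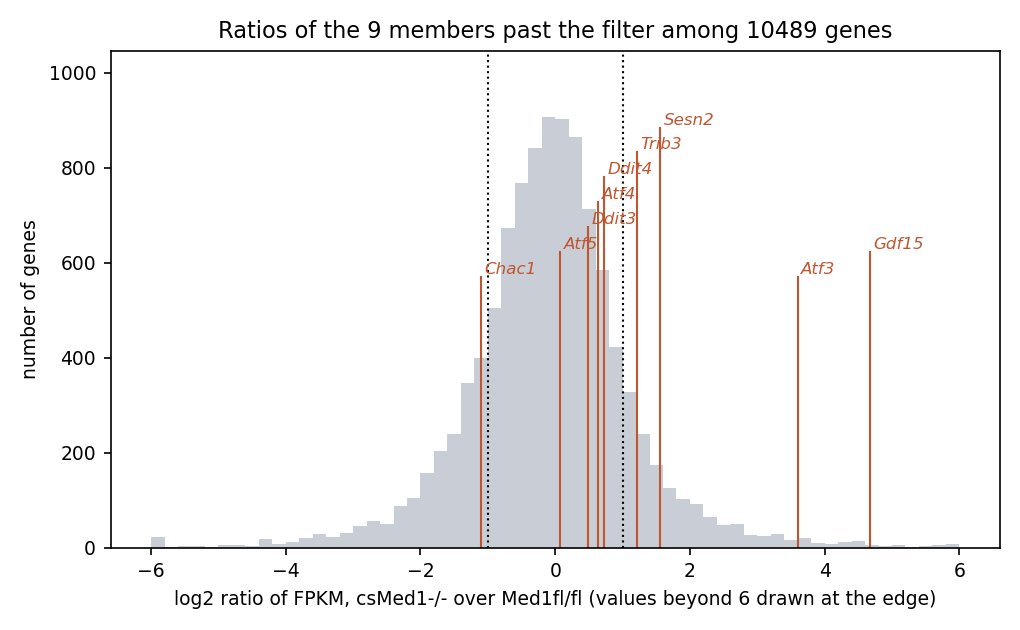
Number of genes by log2 ratio of FPKM, csMed1-/- over Med1fl/fl, for the 10489 genes past the filter (grey, values beyond 6 drawn at the edge), with a red line at the ratio of each of the 9 members. Line height only separates the names, and dotted lines mark 2-fold. Gdf15 and Atf3 lie far to the right, Atf5, Ddit3, Atf4 and Ddit4 lie between 0 and the 2-fold line, Trib3 and Sesn2 lie just past it, and Chac1 lies just left of the 2-fold line.

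Atf4 (chr15:80255184-80257541, plus strand), the factor on which the arms of the response converge, was at 49.5 FPKM in the Med1fl/fl library and at 77.1 FPKM in the csMed1-/- library. Its mRNA was thus abundant in both, and higher in the csMed1-/- library by a ratio of 1.56, under the 2-fold threshold. A lower ratio was found for 77.9% of all genes past the filter. Atf5 (chr7:44812256-44816658, minus strand), a relative of ATF4 that is also controlled by translation and is tied to the mitochondrial stress response, was at 47.5 FPKM in the Med1fl/fl library and 50.03 FPKM in the csMed1-/- library. Its ratio of 1.054 was the closest to 1 among the members, and a lower ratio was found for 56.6% of genes. The exons of Atf5 overlap those of Nup62 and Il4i1 on the other strand, a pair listed in a joint row at 35.0 and 35.1 FPKM. Whether strand was used in counting is not given in the sources used here, so reads of these genes may not have been told apart.

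Atf3 (chr1:191170296-191218039, minus strand), a stress-induced factor of the same basic leucine zipper class that often represses its targets, went from 2.15 FPKM in the Med1fl/fl library to 26.2 FPKM in the csMed1-/- library. This is a ratio of 12.2 (log2 3.60), and 99 of the 10489 genes had a higher one. By level, Atf3 stood at rank 8431 among these genes in the control library and at rank 2825 in the csMed1-/- library. Ddit3 (chr10:127290829-127293753, plus strand), which encodes the pro-apoptotic factor CHOP, was at 11.4 FPKM in the Med1fl/fl library and 15.9 FPKM in the csMed1-/- library. Its ratio of 1.40 was exceeded by 2835 genes, and it stayed within 1.5-fold. Ddit3 overlaps Mars, a methionyl-tRNA synthetase gene on the other strand that was at 30.1 and 47.3 FPKM.

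The transcription factors thus stood apart from each other in how much they differed. The Atf3 level was 0.0435 of the Atf4 level in the Med1fl/fl library and 0.340 of it in the csMed1-/- library. The Ddit3 level was 0.230 of the Atf4 level in the first and 0.207 in the second.

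Trib3 (chr2:152337422-152344032, minus strand), a pseudokinase induced by ATF4 and CHOP that binds ATF4 and dampens it, was at 3.99 FPKM in the Med1fl/fl library and 9.25 FPKM in the csMed1-/- library. The ratio was 2.32 (log2 1.22), with 1073 genes above it. Chac1 (chr2:119351229-119354381, plus strand), an enzyme that breaks down glutathione and a well-known ATF4 target, went the other way. It was at 9.20 FPKM in the Med1fl/fl library and 4.29 FPKM in the csMed1-/- library, 2.15-fold lower (log2 -1.10). A lower ratio was found for 16.0% of genes. Trib3 and Chac1 thus traded places: Trib3 was at 0.433 of the Chac1 level in the Med1fl/fl library and at 2.16 times it in the csMed1-/- library. The place of Chac1 past the 2-fold threshold was lost when the libraries were scaled to the same FPKM sum (log2 -0.98), and its direction was kept under every scaling tried.

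Ddit4 (chr10:59949669-59951834, minus strand) encodes REDD1, which restrains the growth kinase complex mTORC1 under stress. It was the most abundant of the 10 genes, at 84.9 FPKM in the Med1fl/fl library and 139.9 FPKM in the csMed1-/- library. The ratio was 1.65 (log2 0.72), within 2-fold, while the difference in level of 55.1 FPKM was the largest among the members. Sesn2 (chr4:132492032-132510501, minus strand), a leucine-sensing inhibitor of mTORC1, was at 3.43 FPKM in the Med1fl/fl library and 10.1 FPKM in the csMed1-/- library. Its ratio of 2.95 (log2 1.56) was exceeded by 712 genes.

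Gdf15 (chr8:70629393-70632456, minus strand), a secreted factor of the TGF-β superfamily that lowers food intake through the brainstem receptor GFRAL, was at 1.67 FPKM in the Med1fl/fl library and 42.6 FPKM in the csMed1-/- library. This ratio of 25.5 (log2 4.67) was the largest of the members, and 33 of the 10489 genes had a larger one. By level it stood at rank 8978 in the control library and at rank 2003 in the csMed1-/- library. Fgf21 (chr7:45613886-45615490, minus strand), a hormone that acts through FGF receptors with the coreceptor β-Klotho, was at 0.0270 FPKM in the Med1fl/fl library and at 0.174 FPKM in the csMed1-/- library. Both levels are under the 1 FPKM filter: 9.05% of the 16584 genes above 0 in the control library and 23.9% of the 16773 genes above 0 in the csMed1-/- library were lower still. Its ratio of 6.45 (log2 2.69) rests on these low values, and came to a log2 value of 1.11 with 0.1 FPKM and 0.19 with 1 FPKM added to both libraries. Of the mitokines, Gdf15 was thus the one with an mRNA at an appreciable level, at 244.6 times the Fgf21 level in the csMed1-/- library.

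In order of level, the control library had Ddit4, Atf4, Atf5, Ddit3, Chac1, Trib3, Sesn2, Atf3, Gdf15 and Fgf21. In the csMed1-/- library the first 3 and the last kept their places, Gdf15 and Atf3 came next, and Ddit3, Sesn2, Trib3 and Chac1 followed. Without replicates it is not known which neighbours in either order differ beyond their spread. The genes whose pair of levels lay nearest to that of Gdf15, by Euclidean distance over log2 FPKM in the 2 libraries, were Hspa1b, an inducible Hsp70 (distance 0.19, 1.65 and 37.4 FPKM), Sphk1, a sphingosine kinase (0.25, 1.93 and 46.7 FPKM) and Prss57, a serine protease (0.33, 1.38 and 48.2 FPKM).

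**Figure D3:**
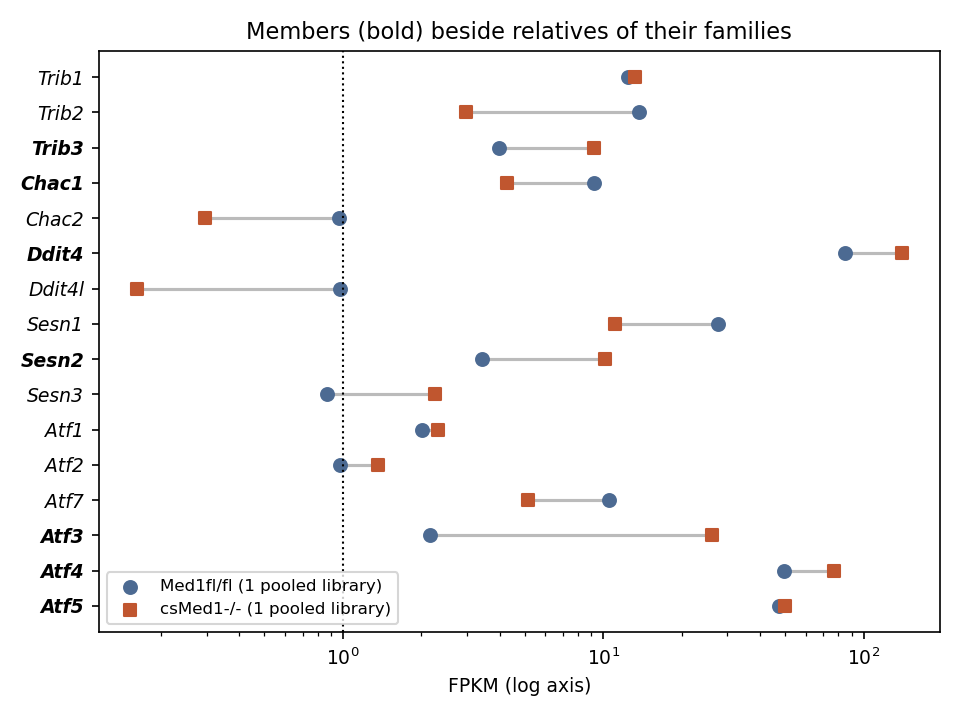
FPKM (log axis) of members (bold) beside relatives of their gene families, in the Med1fl/fl library (circles) and the csMed1-/- library (squares), with 1 pooled library per genotype and a dotted line at 1 FPKM. Within the tribbles, the sestrins and the Ddit4 pair, the member lies further right in the csMed1-/- library while Trib2, Sesn1 and Ddit4l lie further left. Trib1 and Sesn3 lie further right, as the members do.

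Close relatives of the members differed in both directions. Trib1 was at 12.4 FPKM in the Med1fl/fl library and 13.2 FPKM in the csMed1-/- library, and Trib2 was at 13.8 and 2.96 FPKM. Trib3 therefore made up 13.2% of the summed tribbles level in the control library and 36.4% in the csMed1-/- library. Sesn1 was at 27.5 and 11.1 FPKM and Sesn3 at 0.867 and 2.26 FPKM. The summed sestrin level was 31.8 FPKM in the Med1fl/fl library and 23.5 FPKM in the csMed1-/- library, of which Sesn2 held 10.8% and 43.1%. The higher Sesn2 level thus stood beside a lower level of Sesn1, the most abundant sestrin of the control library.

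Chac2, the relative of Chac1 that breaks down glutathione more slowly, was at 0.964 and 0.295 FPKM, and Ddit4l, the relative of Ddit4, at 0.972 and 0.162 FPKM. Both were under the filter and lower in the csMed1-/- library. Of the 10 relatives in the list that passed the filter, 3 were more than 2-fold higher (Creb5, Creb3 and Sesn3) and 3 more than 2-fold lower (Trib2, Sesn1 and Atf7). The filter bears on these counts: Creb5, Sesn3 and Atf2 passed it through the csMed1-/- library alone, while Chac2, Ddit4l, Gdf11 and Batf3, which were under 1 FPKM in the control library and lower in the other, did not pass. Among the genes past it, Creb3, a membrane-bound stress factor, was at 26.8 and 121.4 FPKM, Creb5 at 0.189 and 1.48 FPKM, and Atf7 at 10.5 and 5.16 FPKM. Atf2, the stress-kinase-controlled relative of ATF7, was at 0.974 and 1.37 FPKM. Among the relatives of the mitokines, all under the filter, Gdf11 was at 0.609 and 0.107 FPKM and Fgf23 at 0.0139 and 0.609 FPKM, and Mstn and Fgf15 were listed at 0 in both libraries.

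Upstream of the members, the list of eIF2α kinases, their activators, eIF2 and eIF2B subunits and eIF2α phosphatase subunits had 18 genes past the filter. Of these 2 were more than 2-fold higher and 2 more than 2-fold lower, with a median log2 ratio of 0.09. Neither count is above the shares of all genes, which were 13.6% higher and 18.0% lower. None of the kinases passed the threshold: Eif2ak2 (PKR, the sensor of double-stranded RNA) was at 22.9 and 43.0 FPKM in the Med1fl/fl and csMed1-/- libraries, Eif2ak1 (HRI) at 13.0 and 9.20, Eif2ak3 (PERK) at 1.09 and 1.17, and Eif2ak4 (GCN2), under the filter, at 0.648 and 0.405. The 2 genes of the list that passed it downward, Oma1 and Dele1, are known from the mitochondrial route into HRI. Oma1, the inner membrane protease that cleaves DELE1, was at 16.7 and 4.79 FPKM, and Dele1, listed under its older symbol 0610009O20Rik, was at 177.8 and 31.0 FPKM. Ppp1r15a, which encodes the stress-induced phosphatase subunit GADD34 that ends the response, was at 13.7 and 90.1 FPKM (log2 ratio 2.71). Eif2b2, a subunit of the exchange factor that phosphorylated eIF2 inhibits, was at 34.6 and 77.0 FPKM.

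Downstream, 21 other textbook targets or partners of ATF4 and CHOP passed the filter. Of these 8 were more than 2-fold higher and 2 more than 2-fold lower, where 13.6% of all genes were higher and 18.0% lower. The median log2 ratio was 0.62, near the 0.72 of the members. The lists share genes: Ppp1r15a is counted here and in the upstream list, and Tnfrsf10b here and among the p53 targets below. The highest ratio belonged to Slc7a5, the light chain of the large neutral amino acid transporter, at 3.92 FPKM in the Med1fl/fl library and 88.3 FPKM in the csMed1-/- library. Its heavy chain, Slc3a2, was at 40.6 and 144.6 FPKM, and Nupr1, a small stress-induced transcription regulator, at 2.87 and 11.2 FPKM. The list was not of one direction. Gpt2, the mitochondrial alanine aminotransferase, was at 16.8 and 1.43 FPKM, and Herpud1, a factor in endoplasmic reticulum protein degradation, at 263.0 and 113.2 FPKM. Asns, the asparagine synthetase whose promoter is the classic ATF4 target, was at 2.07 and 2.25 FPKM, a log2 ratio of 0.12 that stands beside the 0.64 of Atf4. Cebpb, a partner of ATF4 on such promoters, was at 80.3 and 111.5 FPKM.

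Of the 10 serine, proline and mitochondrial one-carbon enzymes, 9 had a higher value in the csMed1-/- library. Aldh1l2, a mitochondrial folate enzyme, was lower and under the filter, at 0.766 FPKM in the Med1fl/fl library and 0.0946 FPKM in the csMed1-/- library. More than 2-fold higher were 3 of those past the filter: Mthfd2, which runs the mitochondrial folate cycle (0.696 and 3.13 FPKM), Pycr1, a proline-making reductase (1.23 and 3.38 FPKM), and Phgdh, the first enzyme of serine synthesis (2.49 and 5.20 FPKM). Mthfd2 and Mthfd1l passed the filter through the csMed1-/- library alone, so no median is read from this list. Of the 12 genes of the list of cytosolic aminoacyl-tRNA synthetases past the filter, 0 passed 2-fold in either direction, with a median log2 ratio of 0.05. The 12 include Xpot, a tRNA export gene and not a synthetase (2.46 and 1.55 FPKM). Aars is listed in a joint row with Exosc6, at 23.7 and 52.96 FPKM (log2 ratio 1.16), and was not counted, since the row does not tell the pair apart.

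**Figure D4:**
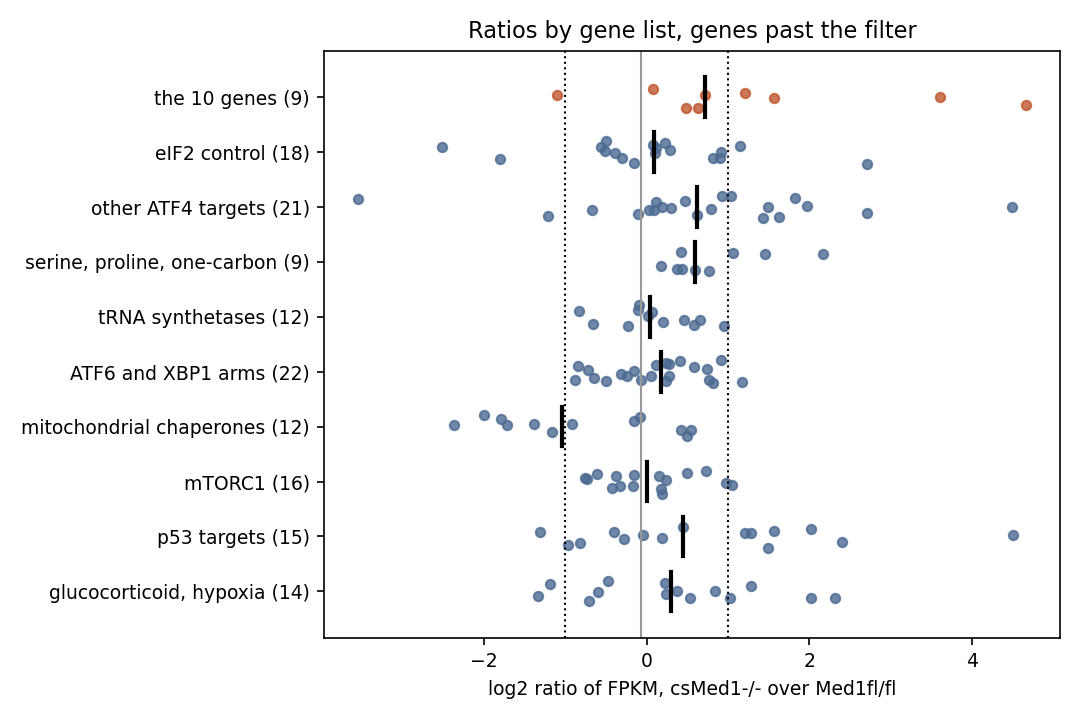
Log2 ratio of FPKM, csMed1-/- over Med1fl/fl, for each gene past the filter in the 10-gene set (red) and in the pathway lists (blue), with the number past the filter in brackets. Black bars are list medians, the grey line is the median of all 10489 genes, dotted lines mark 2-fold, and vertical scatter within a row only separates points. The mitochondrial chaperones lie mostly left of the grey line, and the members and the other ATF4 targets have medians of 0.72 and 0.62, to its right. In the serine, proline and one-carbon row a lower gene, Aldh1l2, is left out by the filter. The tRNA synthetase row includes Xpot, a tRNA export gene.

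The neighbouring stress pathways had lower medians than the members. In the ATF6 and XBP1 arms of the endoplasmic reticulum response, 22 genes passed the filter, 1 was more than 2-fold higher (Sdf2l1, 6.56 and 14.8 FPKM) and 0 were lower, with a median log2 ratio of 0.18. Hspa5, the chaperone BiP and the usual marker of that response, was at 73.8 FPKM in the Med1fl/fl library and 44.8 FPKM in the csMed1-/- library. Of 12 mitochondrial chaperone and protease genes, 0 were more than 2-fold higher and 6 more than 2-fold lower, with a median log2 ratio of -1.04. The shares of all genes were 13.6% higher and 18.0% lower. Higher values within 2-fold were found for 3 of the 12: Lonp1 (61.2 and 82.4 FPKM), Htra2 (29.1 and 42.4 FPKM) and Spg7 (68.2 and 95.9 FPKM). Among the lower ones were Dnaja3 (86.8 and 16.8 FPKM), Hspa9 (99.9 and 25.01 FPKM), Hspd1 (27.0 and 7.79 FPKM) and Afg3l2 (32.9 and 9.99 FPKM). The set of 10 genes and the mitochondrial chaperones, both known to answer mitochondrial stress, thus had medians on opposite sides of that of all genes.

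Over the 11 pathway lists together, 148 genes passed the filter, 28 of them (18.9%) were more than 2-fold higher and 16 (10.8%) more than 2-fold lower, with a median log2 ratio of 0.20. The shares of all genes were 13.6% and 18.0%. Mthfd2, Creb5 and Sesn3 are among the higher genes and Ret among the lower ones through a single library past 1 FPKM.

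The levels of cell type marker genes differed between the libraries too, while the cell make-up of the pools was not measured. Of 7 cardiomyocyte markers past the filter, all were lower in the csMed1-/- library 5 of them by more than 2-fold, and their sum was 51230 FPKM in the Med1fl/fl library and 19580 FPKM in the csMed1-/- library. These are the levels of a heart in both libraries, with the exceptions that Actc1 and the joint row of Myh6 and Myh7 are listed at 0 in the Med1fl/fl library, against 9189 and 646.9 FPKM in the csMed1-/- library. They are in no marker sum here, since a 0 for such genes can be a failed estimate, but they do enter the FPKM sum of each library. Of 7 fibroblast markers 3 were more than 2-fold higher and 1 more than 2-fold lower, and the sum of the 7 was 501.7 and 1166 FPKM. The largest differences in that sum were those of the collagen genes Col1a1 (129.5 and 501.7 FPKM) and Col1a2 (95.66 and 314.3 FPKM). Lower values were found for 3 of the 7: Pdgfra (4.095 and 4.033 FPKM), Dcn (114.1 and 96.64 FPKM) and Lum (8.041 and 3.723 FPKM). Of 6 endothelial markers 3 were more than 2-fold lower (sum 404.2 and 263 FPKM). Of 6 smooth muscle and pericyte markers 2 were more than 2-fold higher and 1 more than 2-fold lower (sum 664.7 and 1087 FPKM). By direction alone, 3 of the 6 were higher and 3 lower. Cnn1 was at 4.32 and 622.4 FPKM, and Acta2, the most abundant of them in the control library, at 572.6 and 310 FPKM. Of 5 leukocyte markers past the filter 1 was more than 2-fold higher and 0 more than 2-fold lower (sum 163.6 and 130.1 FPKM). By direction alone, 2 were higher and 3 lower. Both erythroid markers on rows of their own were more than 2-fold higher (sum 36.5 and 85.3 FPKM), of which Slc4a1 passed the filter through the csMed1-/- library alone. The far more abundant globins, in joint rows, were higher within 2-fold. Hba-a1 and Hba-a2 were at 8894 and 12080 FPKM (log2 ratio 0.44), and Beta-s, Hbb-b1 and Hbb-b2 at 7011 and 12720 FPKM (0.86). Of 5 adipocyte markers 4 were listed at 0 in the control library, and the one past the filter, Cidea, was more than 2-fold higher (37.6 and 81.5 FPKM). The part of these shifts in the levels of Gdf15, Atf3, Sesn2, Trib3 and Chac1 was not tested, and fewer cells of a type and less RNA per cell cannot be told apart in RNA of the whole heart.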

How the data were processed

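Poly(A)-selected, directional single-end libraries (50 nt) were sequenced from heart RNA pooled by genotype. The authors mapped reads with TopHat v2.0.8b to mm10. The deposited FPKM values of known genes come from Cufflinks and cuffdiff v2.1.1. The submitters' processing notes also name STAR 2.4.0h, Bowtie2 and DESeq2, with no role. The scaling between libraries is not given in the sources used here. FPKM values carry no read counts, so the depth of each library and the counting error of each value are unknown. The libraries summed to 780366 (Med1fl/fl) and 716365 FPKM (csMed1-/-), with medians of 8.58 and 8.06 FPKM over the genes past the filter.

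The 23424 rows were summed over the 412 symbols found on several rows. The 210 rows that name several genes were kept under their joint name and credited to no single gene. Ratios were taken with no pseudocount (Python 3.11.15, numpy 2.4.6, pandas 2.3.3, figures with matplotlib 3.10.9). The 2-fold threshold is that of the study, which also set a false discovery rate cutoff in cuffdiff. No such cutoff was applied here, so the genes past 2-fold are not the study's list. With 1 library per genotype no test was run. The 11 pathway lists and 7 marker lists are textbook lists, and named in the text are the members, Med1, up to 4 genes of each list past 2-fold with the largest ratios, kinases and relatives set by role, and the 3 genes nearest to Gdf15. Actc1, Cnn1, Mars, Nup62, Mdm2, Ccng1, Xpot and other genes named for an overlap, a value of 0, the filter, a direction, a role or a sum were added after their values were seen. The members and lists were chosen with earlier results of these data known. Positions are from GENCODE M21 (GRCm38) and upstream sequences from RefSeq.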

Additional observations from a re-analysis of the deposited data

How the results depend on the processing

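No paired analysis was possible because each genotype has 1 library, and no library can be left out. Of 96 values of single members under other pseudocounts, filters, scalings and row rules, 91 moved by less than 1.5 times and stayed on their side of 2-fold, 5 did not, and 0 changed sign. The filters and the row rule could not move these values, since a filter only drops genes and every member has a single row. The tally is therefore informative for the pseudocounts and the scalings only. The 5 were Chac1 with a pseudocount of 1 (log2 -0.95) or scaled to the FPKM sum (-0.98), Gdf15 with a pseudocount of 1 (4.03), and Fgf21 with pseudocounts of 0.1 (1.11) and 1 (0.19). The count of members more than 2-fold lower went from 1 to 0 with a pseudocount of 1, with a filter at 10 FPKM, when scaled to the FPKM sum, and at the 4-fold threshold. The count more than 2-fold higher was 4 or within 1.5 times of it except at 4-fold, where it was 2. It was 3 with the 10 FPKM filter, which removes Trib3, and 5 with no filter, which adds Fgf21. Over the pathway lists 44 genes passed 2-fold, and 29 with the 10 FPKM filter, which tests fewer genes. Scaling to the FPKM sum moved the median log2 ratio of all genes from -0.07 to 0.05. That sum includes Actc1 and the joint row of Myh6 and Myh7, listed at 0 in the Med1fl/fl library. Counting error could not be assessed, since the depth is unknown, and it weighs most on Fgf21, Gdf15 and Atf3 in the control library.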

Other observations

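Target genes of other known inputs of the members were also looked up, while the inputs themselves were not measured. Of 15 textbook p53 targets past the filter, 7 were more than 2-fold higher in the csMed1-/- library and 1 was more than 2-fold lower, with a median log2 ratio of 0.44. The shares of all genes were 13.6% higher and 18.0% lower. A lower value was found for 6 of the 15, among them Mdm2 (2.33 and 1.93 FPKM) and Ccng1 (11.58 and 5.95 FPKM). Cdkn1a, the cell cycle inhibitor p21, was at 30.5 FPKM in the Med1fl/fl library and 693.3 FPKM in the csMed1-/- library, Phlda3 at 16.4 and 86.8 FPKM, Plk3 at 1.60 and 6.50 FPKM, and Zmat3 at 2.43 and 7.18 FPKM. Gdf15, Atf3 and Sesn2 are known p53 targets as well as targets of the integrated stress response, and Sesn1, the one gene of the list more than 2-fold lower, is the relative of Sesn2. A part of p53 in the levels of the members was not tested. Of 14 targets of glucocorticoids or hypoxia, inputs known for Ddit4, 4 were more than 2-fold higher and 2 more than 2-fold lower. Their median log2 ratio was 0.31, and the shares of all genes are those given above. A lower value was found for 5 of the 14, among them Pdk1 (8.60 and 3.77 FPKM), Vegfa (14.6 and 10.5 FPKM) and Zbtb16 (8.20 and 5.01 FPKM). Adm was at 4.25 and 21.2 FPKM, Fkbp5 at 6.97 and 28.4 FPKM, Slc2a1 at 13.6 and 33.0 FPKM, and Klf9 at 7.85 and 3.12 FPKM.

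Of 16 genes of mTORC1 and its controls, on which REDD1 and SESN2 act, 1 was more than 2-fold higher (Mtor, 12.0 and 24.8 FPKM) and 0 were more than 2-fold lower. Among all genes 13.6% were higher and 18.0% lower by that threshold. Of the receptors of the mitokines, Gfral and Klb were listed at 0 in both libraries. Ret, the coreceptor of GFRAL, was at 1.63 and 0.378 FPKM, Fgfr3 at 3.64 and 9.33 FPKM, and Fgfr1 at 12.6 and 24.0 FPKM. The list gives the levels of the receptors in heart, not in the tissues on which the hormones are known to act.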
